A study of Homo sapiens with 8 samples.

Results

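The genes described here are 31 genes of cholesterol handling, measured in LX-2 cells, an established human line of activated hepatic stellate cells that serves as a model of liver myofibroblasts. They were taken by symbol from a list made of 18 enzymes of cholesterol synthesis, 5 genes that control the sterol-sensing transcription factors (SREBPs), 4 genes of sterol uptake and intracellular transport, and 4 genes of sterol efflux. All 31 were found among the 16796 genes of the files, and all 31 passed the filter on low counts. The control group was LX-2 cells given vehicle (DMSO), and the OGTi group was LX-2 cells given the O-GlcNAc transferase inhibitor OSMI-1 at 50 µM, both for 24 h in medium with 5% serum. O-GlcNAc transferase (OGT) attaches the sugar O-GlcNAc to proteins inside the cell. Each group had 4 libraries from biological replicates of this single cell line, and OSMI-1 was used at a single dose and a single time, so neither a dose response nor an effect of the compound apart from OGT could be read from these samples.

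Cholesterol is built from acetyl-CoA by way of mevalonate, farnesyl diphosphate, squalene and lanosterol. The transcription factors encoded by SREBF1 and SREBF2 are made as membrane proteins of the endoplasmic reticulum. When sterols are scarce, SCAP carries them to the Golgi, where they are cut, and the freed part enters the nucleus and switches on genes of sterol synthesis and uptake. When sterols are plentiful, INSIG proteins hold SCAP and its cargo in the endoplasmic reticulum. In the opposite branch, oxysterols activate the liver X receptors, encoded by NR1H2 and NR1H3, which switch on genes of efflux such as ABCA1. Stellate cells are known for storing retinyl esters in lipid droplets, which they lose on activation.

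The 8 libraries held 24166756 to 28201215 counts, and no library was a copy of another (within a group, chi-square over degrees of freedom was 8.38 or more for every pair). The first principal component of the 500 most variable genes separated control from OGTi libraries. Control replicate 3 lay farther out on it, at -22.3 against -17.4 to -16.5 for the other controls. Leaving out replicate 3 changed the call of SREBF1 alone among the 31 members. Of 14 stellate cell or myofibroblast markers, 10 had at least 10 counts in every library, and LUM, DCN, DES and LRAT were below 10 counts in all of them. At the threshold given below, 1 of the 14 was higher and 7 were lower in OGTi cells (22.7% and 24% of all genes). The hepatocyte markers present in the files summed to at most 0.666 CPM (counts scaled to the library total). Of the cholangiocyte markers, KRT7 and SOX9 had at least 10 counts in every library, and that list summed to 25.8 to 50.8 CPM. Of the endothelial cell markers, VWF alone did, at 12 to 44 counts, and that list summed to at most 3.44 CPM. Of the macrophage or leukocyte markers, CD68 alone was above 10 counts in every library, and the sum of that list was 92.1 to 147 CPM in control and 216 to 369 CPM in OGTi libraries. CD68 is also a lysosomal protein of many cells, and its part in the results below was not tested. OGT itself fell from 5636 ± 260 to 4146 ± 477 normalized counts (SD, n = 4 in both groups), although an inhibitor acts on the protein, so this transcript is no check of the labels. OGA, the gene of the opposing hydrolase that takes the sugar off, had 3159 ± 423 and 904 ± 85.3.

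Because the synthesis genes moved together, the promoters of the members were read for the letters that the SREBPs and their partner factors are known to bind. RefSeq windows on GRCh38.p14, from 250 bases before to 50 bases after the start, were matched for 27 of the 31 members. ACAT2, FDFT1, SQLE and ABCG1 had no match. A stretch of 150 bases outside the annotated exons of the gene is shown for 4 of the matched members. SREBF2 held the only match among the members to the form of the sterol regulatory element core that was searched. MVD and DHCR7 are enzyme genes with large rises, and ABCA1 had the largest fall. Capitals mark the sterol regulatory element core TCACNCCAC, the NF-Y letters CCAAT and the E-box CACGTG, each on either strand. The stretches lie at chr22:41832955-41833104 (plus strand, SREBF2), chr16:88663162-88663311 (minus strand, MVD), chr11:71448436-71448585 (minus strand, DHCR7) and chr9:104928156-104928305 (minus strand, ABCA1). That of SREBF2 also lies in an exon of SREBF2-AS1, a noncoding gene on the other strand. That of DHCR7 lies inside the gene as annotated, in an intron of the transcript that starts farthest upstream, and before the first exon of the others.
SREBF2: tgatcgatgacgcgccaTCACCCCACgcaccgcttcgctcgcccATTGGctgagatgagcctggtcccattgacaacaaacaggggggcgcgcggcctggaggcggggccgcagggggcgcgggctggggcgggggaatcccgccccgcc
MVD: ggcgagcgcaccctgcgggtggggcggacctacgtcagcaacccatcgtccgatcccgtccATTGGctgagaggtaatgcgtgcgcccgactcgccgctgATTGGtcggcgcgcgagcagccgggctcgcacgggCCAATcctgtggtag
DHCR7: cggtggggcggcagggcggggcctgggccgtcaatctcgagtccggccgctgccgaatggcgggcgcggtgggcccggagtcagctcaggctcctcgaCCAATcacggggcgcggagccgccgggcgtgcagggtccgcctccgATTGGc
ABCA1: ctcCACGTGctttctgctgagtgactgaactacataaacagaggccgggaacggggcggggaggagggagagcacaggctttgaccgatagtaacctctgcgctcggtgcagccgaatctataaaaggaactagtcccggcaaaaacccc

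MVD held the NF-Y letters at 3 places, DHCR7 at 2 and SREBF2 at 1, and ABCA1 held the E-box at 1 place near its upstream end. Over the full windows, the sterol regulatory element core was present in that of SREBF2 alone among the 27 members, and in 1.15% of all 27305 windows. It was searched in the form TCACNCCAC only, which is rare. Its absence therefore cannot tell whether a member's window holds a variant of the element, and variants were not searched. The NF-Y letters were present in 12 of 15 synthesis genes with a window and in 5 of 12 other members, against 35.7% of all windows and 36.3% of those of genes tested here. The SP1 letters GGGCGG were present in 25 of the 27 members, against 44.6% of all windows and 68.1% of those of genes tested here. The E-box was present in 5 of the 27 members, SCAP, INSIG1, ABCA1, SC5D and LSS. It was in 7.43% of all windows and 9.87% of those of genes tested here. The direct repeat known for liver X receptors was searched in a strict form, held by 5 of 27305 windows (0.0183%). That form was in 0 of the 27 members and in 0 of 11479 windows of genes tested here. A form this rare cannot tell whether a member's window, that of ABCA1 included, holds a looser repeat. Such repeats were not searched and are not marked in the stretches shown. These are matches of letters, not binding sites, both strands were read, motifs could overlap, and letters outside the windows were not searched.

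The cholesterol synthesis enzymes rose as a group. Of the 18 genes, 16 rose, 0 fell and 2 were not called at the threshold used throughout, an adjusted p-value (q) of 0.05 or lower in DESeq2. Across all genes with a q, 46.6% were called, 22.7% as higher and 24% as lower in OGTi cells. The median log2 fold change of the synthesis genes was 0.81, against 0.00 over all genes tested. As bulk counts, these values do not tell a change in the share of cells in a given state from a change in RNA per cell. All 18 were higher in OGTi cells in all 4 replicate pairs, and for 16 of them the normalized counts of the 2 groups did not overlap (38% of all genes tested did not overlap, in either direction). The plot of normalized counts by library shows these enzymes with the other members.

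**Figure D1:**
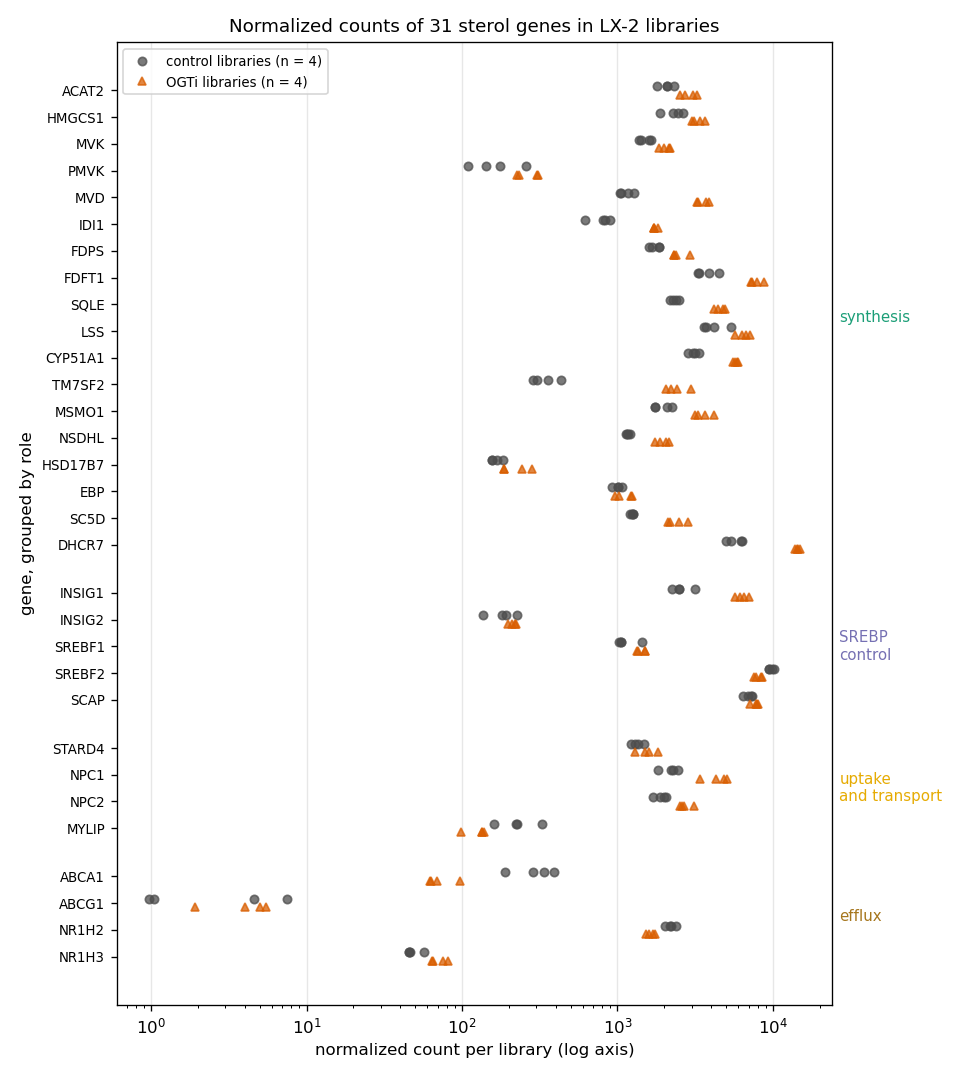
Normalized counts (counts divided by the library's size factor, log axis) of the 31 genes in the 4 control libraries (circles) and the 4 OGTi libraries (triangles), grouped by role. Nearly all synthesis genes sit to the right in OGTi cells, while ABCA1, MYLIP, NR1H2 and SREBF2 sit to the left, and ABCG1 lies near the limit of detection.

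The enzymes of the first steps, from acetyl-CoA to farnesyl diphosphate, were all called, 7 of 7, with a median log2 fold change of 0.52. The largest rise among them was that of MVD, the decarboxylase that makes isopentenyl diphosphate (chromosome 16, 88651935 to 88663161). MVD had 1280, 1172, 1056 and 1040 normalized counts in control replicates 1 to 4 and 3314, 3905, 3724 and 3255 in OGTi replicates 1 to 4. Every OGTi library was above every control, and the log2 fold change was 1.64 ± 0.09 (standard error, q of 1.89e-72), or 3.12-fold. IDI1, the isomerase that acts on the product of MVD, had 892, 813, 837 and 615 normalized counts in control and 1724, 1709, 1707 and 1832 in OGTi libraries. Its groups did not overlap, and its log2 fold change was 1.15 ± 0.11 (q of 2.01e-24).

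The other first-step enzymes rose by less. ACAT2, the cytosolic thiolase that condenses acetyl-CoA, went from 2066 ± 221 to 2885 ± 334 normalized counts, with a log2 fold change of 0.48 ± 0.08 (q of 1.67e-08). HMGCS1, which makes HMG-CoA, had 2294, 2623, 2470 and 1892 normalized counts in control replicates 1 to 4 and 3039, 3112, 3411 and 3676 in the OGTi libraries (0.52 ± 0.10, q of 2.82e-06). Its rise differed between pairs, from 0.25 on the log2 scale in replicate 2 to 0.96 in replicate 4. MVK (0.44 ± 0.09) and PMVK (0.69 ± 0.18), the kinases that phosphorylate mevalonate in turn, both rose, although PMVK was low, at 110 to 257 normalized counts in control, and its groups overlapped. FDPS, the synthase of farnesyl diphosphate, rose by 0.51 ± 0.08 (q of 1.85e-08). By name, pseudogenes are annotated for IDI1, FDPS, CYP51A1 and HSD17B7. None of these pseudogenes is a row of the files, so reads could have been shared between the genes and their copies. Pseudogenes under other names were not looked for.

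Of the enzymes of the sterol steps, from squalene to cholesterol, 9 of 11 rose, with a median log2 fold change of 0.90. TM7SF2, a sterol C14 reductase (chromosome 11, 65111845 to 65116384), had the largest change of all 31 members. It had 434, 355, 287 and 306 normalized counts in control replicates 1 to 4 and 2064, 2953, 2409 and 2209 in OGTi replicates 1 to 4. The groups lay far apart, and the log2 fold change was 2.80 ± 0.13 (q of 3.98e-108), or 6.98-fold. In all, 55 of the 14028 genes with a q had a larger log2 fold change. The pair of replicate 1 showed the smallest rise, 2.25 against 2.85 to 3.06 in the other pairs. TM7SF2 overlaps VPS51 exons on the same strand only at its upstream end, where VPS51 ends at 65111862. VPS51, named after its values were seen, was lower in OGTi cells (-0.44 ± 0.09, q of 3.06e-06). LBR, the other sterol C14 reductase, also named after its values were seen, was lower as well, with 2109 ± 313 normalized counts in the control group against 1216 ± 130 with OGTi (-0.79 ± 0.10, q of 2.03e-14).

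DHCR7, the reductase that completes a branch of the pathway (chromosome 11, 71428193 to 71452868), was the most abundant member per kilobase of transcript in OGTi cells. It had 6255, 6291, 4979 and 5409 normalized counts in control and 14216, 14879, 14401 and 13955 in OGTi libraries. The OGTi libraries lay close together, and the log2 fold change was 1.33 ± 0.07 (q of 6.35e-69), or 2.52-fold. SC5D, the desaturase that acts just before DHCR7, had 1209 to 1260 normalized counts in control and 2130, 2187, 2487 and 2838 in OGTi replicates 1 to 4 (0.95 ± 0.09, q of 1.65e-24). FDFT1, squalene synthase and the first enzyme committed to sterols, had 4528, 3904, 3331 and 3320 in control and 8757, 7904, 7345 and 7203 in OGTi libraries (1.06 ± 0.07, q of 1.45e-49). For FDFT1 the order of the replicates was the same in both groups, and its 4 pairs were close, at 0.95 to 1.14. SQLE, squalene epoxidase, a rate-limiting enzyme of the sterol branch, went from 2327 ± 126 to 4569 ± 347 (0.97 ± 0.08, q of 7.38e-29).

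CYP51A1, the lanosterol demethylase, rose by 0.90 ± 0.08 on the log2 scale (q of 7.22e-31), and MSMO1, the oxidase that begins removal of the methyl groups at C4, by 0.87 ± 0.11 (q of 1.79e-14). NSDHL, the dehydrogenase of the same demethylation, rose by 0.74 ± 0.09 (q of 5.55e-17). LSS, which closes the rings to form lanosterol, rose by 0.63 ± 0.08 (q of 1.54e-14). The exceptions were HSD17B7 and EBP. HSD17B7, the ketoreductase of the C4 demethylation, had 184, 167, 157 and 157 normalized counts in control and 187, 185, 242 and 284 in OGTi libraries (0.41 ± 0.19, q of 0.0657). The OGTi libraries of replicates 1 and 2 were barely above the controls, and those of replicates 3 and 4 were clearly above them. HSD17B7 passed the threshold in both edgeR fits, in DESeq2 without the replicate block and without replicate 1, where q was 0.0296 to 0.0442. EBP, the sterol isomerase, had 926 to 1076 normalized counts in control and 963 to 1235 in OGTi libraries, and its log2 fold change of 0.14 ± 0.09 had a 95% interval of -0.05 to 0.32 (q of 0.242).

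**Figure D2:**
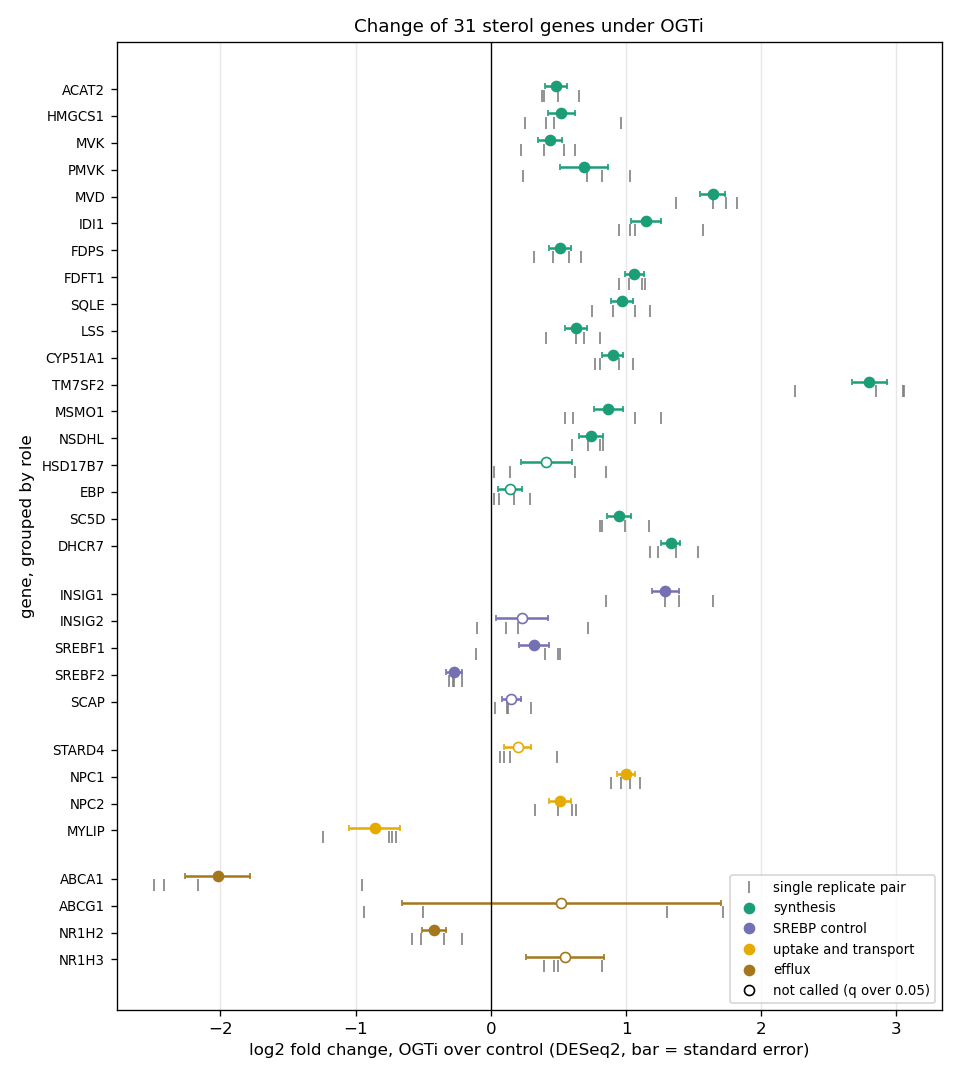
Log2 fold change of OGTi over control for each gene (circle, with its DESeq2 standard error as a bar), coloured by role, with the value of each of the 4 replicate pairs as a grey tick. Filled circles passed a q of 0.05, open circles did not. The synthesis genes lie to the right of 0, from EBP at 0.14 to TM7SF2 at 2.80, and ABCA1 lies farthest to the left at -2.02.

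The size of the rise differed between replicate pairs. The median log2 ratio over the 18 synthesis genes was 0.71, 0.78, 0.79 and 1.04 for replicates 1 to 4. The pair of replicate 4 had the largest change in 8 of the 18 genes, and the pair of replicate 1 in 0 of them. Replicate 1 had the smallest change in 10 of the 18. Summed over the 18 genes, the level was 1453, 1376, 1179 and 1143 CPM in control replicates 1 to 4 and 2632, 2688, 2595 and 2626 in OGTi replicates 1 to 4. The OGTi libraries were more alike than the controls, and the ratio of the group means was 2.05.

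**Figure D3:**
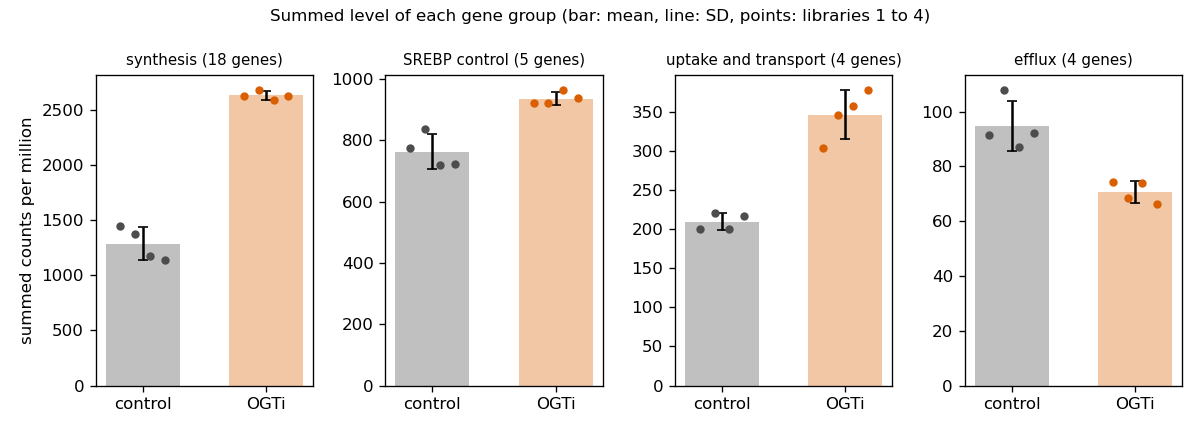
Summed CPM of the genes of each role in the control and OGTi libraries (points, libraries 1 to 4 from left to right; bars, mean; lines, SD; each panel has its own axis from 0). The synthesis sum was 1143 to 1453 in control and 2595 to 2688 in OGTi libraries, the uptake and transport sum was 210 ± 10.6 and 347 ± 31.4, and the efflux sum was 94.6 ± 9.1 and 70.7 ± 3.95 (mean ± SD, n = 4, control first). NR1H2 made up most of the efflux sum, with 2200 ± 152 normalized counts in control against 302 ± 87.1 for ABCA1. No test was made on these sums.

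The genes that control the SREBPs did not move as a block. Of 5, INSIG1 and SREBF1 were called higher, SREBF2 was called lower, and INSIG2 and SCAP were not called (60% called, against 46.6% of all genes). INSIG1, which encodes the sterol-dependent anchor of SCAP and is itself a known SREBP target (chromosome 7, 155297776 to 155310235), had 2502, 3167, 2487 and 2246 normalized counts in control replicates 1 to 4 and 6101, 5712, 6541 and 6983 in OGTi replicates 1 to 4. The groups were well separated, with a log2 fold change of 1.29 ± 0.10 (q of 3.67e-34), or 2.45-fold. INSIG2, its paralog, had 226, 182, 136 and 191 in control and 210, 197, 224 and 220 in OGTi libraries. These groups overlapped, and the log2 fold change of 0.23 ± 0.19 had a 95% interval of -0.14 to 0.59 (q of 0.332). Within each library the log2 ratio of INSIG1 to INSIG2 was 3.83 ± 0.38 in control and 4.89 ± 0.06 in OGTi cells, a difference of 1.06 (exact permutation test, two-sided, p of 0.0286, below which 4 against 4 libraries cannot go, and 0.0286 adjusted over 3 ratios). That test ignores the replicate pairs, and the sign-flip test over the 4 pairs, which cannot reach 0.05, did not pass for this or the other ratios below.

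The SREBP genes themselves changed little and in opposite directions. SREBF2, whose product chiefly drives cholesterol synthesis (chromosome 22, 41833105 to 41907306), had 9405, 10118, 9867 and 9450 normalized counts in control and 7592, 8348, 8501 and 7824 in OGTi libraries. Every OGTi library was below every control, and the log2 fold change was -0.27 ± 0.06 (q of 9.06e-05). This is the gene whose promoter window held the sterol regulatory element core. SREBF1, whose product chiefly drives fatty acid synthesis in one of its forms, had 1061, 1449, 1061 and 1018 in control and 1511, 1342, 1496 and 1348 in OGTi libraries. Its groups overlapped through control replicate 2, and it was higher in 3 of 4 pairs (0.32 ± 0.11, q of 0.00945). It was no longer called without replicate 1 (q of 0.0852), replicate 3 (q of 0.107) or replicate 4 (q of 0.0812), and it was 0.47 without replicate 2. The gene-level counts do not separate the isoforms of SREBF1.

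The log2 ratio of SREBF1 to SREBF2 was -3.10 ± 0.20 in control and -2.50 ± 0.13 in OGTi cells, a difference of 0.59 (same exact permutation test, p of 0.0286, and 0.0286 adjusted over 3 ratios). SCAP, the escort of the SREBPs, had 6446 to 7283 normalized counts in control and 7113 to 7984 in OGTi libraries, with a log2 fold change of 0.15 ± 0.07 and a 95% interval of 0.01 to 0.28 that is not adjusted for the number of genes (q of 0.0739). Per kilobase of transcript, SREBF2 (1854 ± 65.4 normalized counts) and SCAP (1638 ± 87.8) were among the 5 most abundant members in control cells, while SREBF1 (234 ± 41.2) and INSIG2 (51.6 ± 10.5) were low. INSIG1 stood between them at 894 ± 136 in control and reached 2178 ± 189 in OGTi cells.

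**Figure D4:**
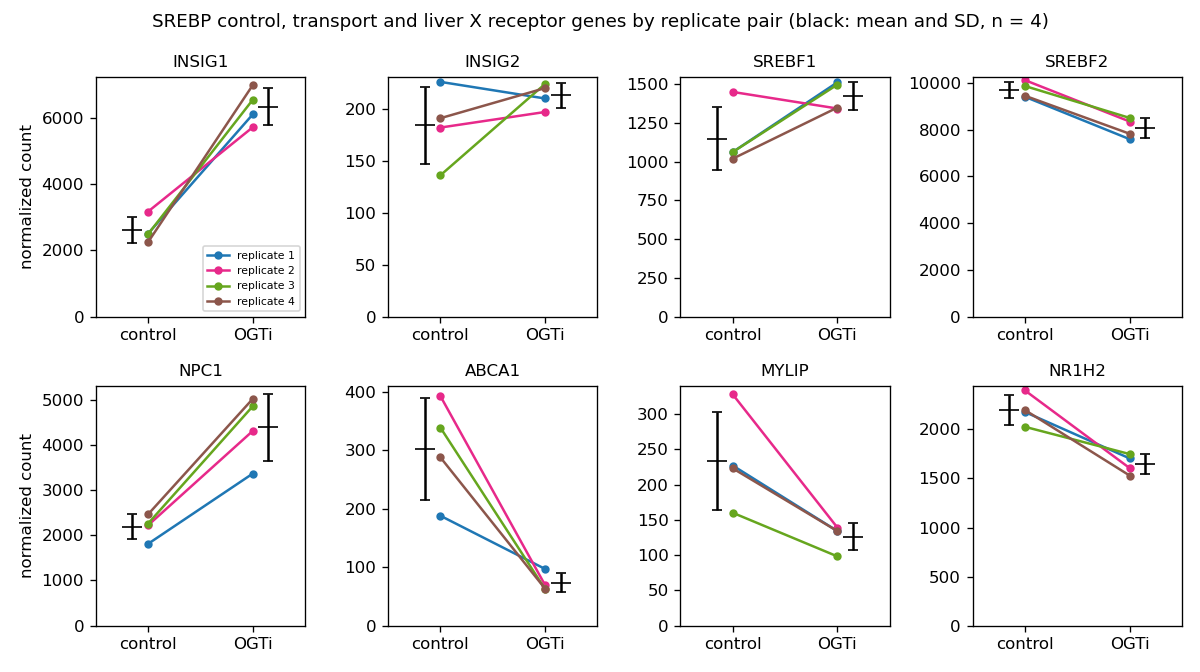
Normalized counts of 8 genes of SREBP control, sterol transport and the liver X receptor branch in control and OGTi libraries, with a line for each of the 4 replicate pairs and the mean and SD of each group in black (n = 4; each axis starts at 0). All 4 lines climb for INSIG1 and NPC1 and descend for SREBF2, ABCA1, MYLIP and NR1H2, while the lines of INSIG2 and SREBF1 do not share a direction.

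The genes of sterol uptake and transport divided (75% called, against 46.6% of all genes). NPC1 and NPC2, which together move cholesterol out of the lysosome after lipoproteins have been taken up, both rose. NPC1 had 1813, 2225, 2263 and 2468 normalized counts in control replicates 1 to 4 and 3372, 4319, 4867 and 5031 in OGTi replicates 1 to 4. The replicates kept the same order in both groups, and the rise was 1.99-fold (q of 1.46e-39), with pairs between 0.89 and 1.10 on the log2 scale. NPC2 had 1884, 2066, 1686 and 2001 in control and 2673, 3127, 2604 and 2510 in OGTi libraries (0.51 ± 0.08, q of 3.16e-09). NPC2 was the most abundant member per kilobase in control cells, at 2325 ± 203, followed by DHCR7 at 2183 ± 246, a difference smaller than their spread. STARD4, a soluble sterol carrier, had 1227 to 1478 normalized counts in control and 1289 to 1818 in OGTi libraries and was not called (0.20 ± 0.10, q of 0.0738). MYLIP, a ubiquitin ligase that lowers lipoprotein uptake and is a known liver X receptor target, went the other way. It had 227, 328, 160 and 223 normalized counts in control and 134, 139, 98.1 and 134 in OGTi libraries (-0.86 ± 0.19, q of 1.91e-05), and the highest OGTi library lay below the lowest control.

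None of the 4 efflux genes was called higher, and ABCA1 and NR1H2 fell. The share called was 50%, near the 46.6% of all genes, of which 22.7% were called higher. ABCA1, the pump that passes cholesterol to apolipoproteins (chromosome 9, 104781006 to 104928155), had 188, 393, 339 and 288 normalized counts in control replicates 1 to 4 and 96.9, 69.3, 62.5 and 63.1 in OGTi replicates 1 to 4. Its groups did not overlap, although replicate 1 had both the lowest control and the highest OGTi value. The log2 fold change was -2.02 ± 0.24 (q of 7.34e-16), or 4.06-fold lower, and it was -2.38 without replicate 1. NR1H2, the liver X receptor found in most tissues, had 2178, 2398, 2027 and 2198 in control and 1705, 1606, 1749 and 1530 in OGTi libraries (-0.42 ± 0.09, q of 1.09e-05). NR1H3, the other liver X receptor, was low, at 45.8 to 57.3 in control and 64.0 to 81.7 in OGTi libraries. Its groups did not overlap, but its log2 fold change of 0.55 ± 0.29 was not called (q of 0.114, 95% interval of -0.03 to 1.13), although it was in DESeq2 without the replicate block (q of 0.0473). ABCG1, a pump that passes cholesterol to lipoproteins, had 1 to 8 counts per library, so a difference was not detectable at this depth (95% interval of -1.79 to 2.82). The log2 ratio of ABCA1 to ABCG1 fell by 2.50 (same exact permutation test, p of 0.0286, 0.0286 adjusted over 3 ratios), a value that carries the counting error of ABCG1.

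Set side by side, the median log2 fold change was 0.81 for synthesis, 0.23 for SREBP control, 0.36 for uptake and transport, and 0.05 for efflux. The efflux median does not mean that these genes were unchanged. It lies between ABCA1 (-2.02) and NR1H2 (-0.42), both called lower, and ABCG1 (0.52) and NR1H3 (0.55), neither called. The uptake and transport median likewise pools NPC1, NPC2 and STARD4 with MYLIP (-0.86), whose product lowers uptake. The 4 members that fell were SREBF2, MYLIP, ABCA1 and NR1H2, none of them an enzyme of synthesis. Over all 31 members, 20 rose and 4 fell (77.4% called, against 46.6% of all genes). The order of levels per kilobase changed with treatment: MVD moved from rank 16 in control to rank 5 in OGTi cells, TM7SF2 from 23 to 13, and INSIG1 from 11 to 4. SREBF2 moved from rank 3 to 12 and NR1H2 from 9 to 19. These ranks also depend on the members that rose past them. Per kilobase, SREBF2 went from 1854 ± 65.4 to 1540 ± 81.9 and NR1H2 from 911 ± 63.1 to 682 ± 40.8. The 3 most abundant members in OGTi cells were DHCR7, FDFT1 and NPC2, of which FDFT1 (3834 ± 346) and NPC2 (3324 ± 333) differed by little more than their spread.

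Other genes of the pathway were counted from lists of general knowledge. POR, the reductase that supplies electrons to CYP51A1 and SQLE, rose from 2575 ± 149 to 6913 ± 823 normalized counts (1.42 ± 0.08, q of 6.43e-77), and ERG28, a scaffold of the C4 demethylation enzymes, rose by 0.97 ± 0.10 (q of 1.42e-19). In that list of 7 other genes of the sterol steps, 2 rose and 2 fell (57.1% called, against 46.6% of all genes). Of 16 genes of SREBP processing and sterol-regulated degradation, 5 rose and 3 fell (50% called). SEC23A, a coat protein of the vesicles that leave the endoplasmic reticulum, fell (-0.85 ± 0.07, q of 1.79e-33), and FAF2, which takes part in the breakdown of endoplasmic reticulum proteins, rose (0.45 ± 0.08, q of 2.59e-08). In the branch of mevalonate that leads to isoprenoids other than sterols, 1 of 13 genes rose and 1 fell, 15.4% called against 46.6% of all genes. DHDDS, a subunit of the enzyme that makes dolichol precursors, rose by 0.21 ± 0.08, but lost its call in both fits without the replicate block (q of 0.0572 and 0.0651) and when any single replicate was left out (q of 0.0539 to 0.168). FNTB, the beta subunit of farnesyltransferase, fell (-1.78 ± 0.14, q of 5.24e-37), and it shares exons with a readthrough gene on the same strand that is also a row of the files.

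Downstream of synthesis and uptake, 3 of 5 genes of sterol esterification and ester hydrolysis rose and 0 fell, 60% called against 46.6% of all genes. LIPA, the lysosomal acid lipase that frees cholesterol from its esters, rose by 0.71 ± 0.09 (q of 1.51e-14), and SOAT1, which forms the esters, by 0.61 ± 0.09 (q of 8.83e-11). Of 18 sterol transfer and oxysterol-binding proteins, 8 rose and 2 fell, a share called (55.6%) near that of all genes. Their largest Wald statistics (change over its standard error) were those of STARD3, a late endosomal sterol transporter (0.73 ± 0.09, q of 4.28e-16), and OSBPL6 (1.08 ± 0.13, q of 4.02e-15). Of 6 genes listed as oxysterol enzymes, 3 could be tested, too few to read a share from. The 2 that rose were the epoxide hydrolase genes EPHX1 (1.15 ± 0.11, q of 8.52e-25) and EPHX2 (1.41 ± 0.46, q of 0.00617). Whether their products act on oxysterols in these cells was not tested. CYP27A1, named after its values were seen, was not called (-0.03, q of 0.913). EPHX2 was low, at 16.1 ± 7.15 normalized counts in control, and leaving out replicate 1 (q of 0.0977) or 3 (q of 0.0665) ended its call. Of 8 other liver X receptor targets and partners, 4 rose and 1 fell (50% higher, against 22.7% of all genes, and 12.5% lower, against 24%). PLTP, a phospholipid transfer protein and known liver X receptor target, rose by 0.78 ± 0.10 (q of 3.27e-13), and LPCAT3, another target, by 0.36 ± 0.09 (q of 3.31e-04). In these values ABCA1 and MYLIP fell while PLTP and LPCAT3 rose, so the targets of the receptors named here did not share a direction.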

How the data were processed

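Polyadenylated RNA of 4 control and 4 OGTi LX-2 cultures was sequenced from both ends with a strand-specific protocol. Per the study's methods and the submitters' processing notes, the authors aligned reads to hg38 with Bowtie2 2.3.5.1 and counted them per gene with RSEM 1.3.1. The deposited files, 1 per library, hold expected counts, that is, estimated counts not scaled for depth. A deposited table of the authors' own comparison was not used.

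Expected counts were rounded, genes with a total under 10 were left out, and the remaining 14895 genes were fitted with DESeq2 1.42.0 (R 4.3.3, Wald test, median-of-ratios size factors), with replicate number as a block, as in the study's methods. The q is the Benjamini-Hochberg adjusted p-value over all genes. Same-numbered libraries deviated together (Pearson r across 10994 genes of 0.372, 0.391, 0.165 and 0.327 for replicates 1 to 4; genes are not independent replicates). Control replicate 3 correlated more with OGTi replicate 4 (0.343), so the pairing rests on the labels and methods. Fold changes were not shrunken. The p-values set each change against the spread between these cultures of 1 line, so they speak only for repeat cultures of that line.

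Pair ratios used a pseudocount of 1, and ratios between members one of 0.5. The sign-flip test over 4 pairs cannot go below 0.125, and the Dixon critical value for 4 libraries was 0.829. Levels per kilobase used the canonical transcript of GENCODE release 44 on GRCh38. edgeR 4.0.16 served in alternatives. The fit was tested on simulated data. All members were named; of each other list, the called members with the 2 largest Wald statistics were named. The members and lists were chosen with earlier results of these data known. Counting opposite strands apart rests on the stated strand setting.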

Additional observations from a re-analysis of the deposited data

Results flagged for a closer look

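For the 31 members, the most extreme of the 4 libraries in each group was examined by its distance to the next library, as a share of the group's spread from lowest to highest. Of 62 groups, 5 had a share above the Dixon 95% critical value, where chance gives about 1 in 20, or 3.1. In control replicate 2, SREBF1 stood at 1449 normalized counts while the remaining controls had 1018 to 1061, and NR1H3 stood at 57.3 while they had 45.8 to 46. Among OGTi libraries, FDPS was high in replicate 2 (2930, with the rest at 2305 to 2388) and IDI1 was high in replicate 4 (1832, with the rest at 1707 to 1724). MYLIP was low in OGTi replicate 3 (98.1, with the rest at 134 to 139), and control replicate 3 was also the lowest of its group. The cause of these gaps was not tested.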

How the results depend on the processing

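Of 340 values for the 31 members under 11 alternative settings, 328 kept both direction and side of the threshold, and 3 more, all of ABCG1, kept their direction but had no q. SREBF1 lost its call without replicate 1, 3 or 4, each left out alone, which left 1 SREBP control gene called higher. HSD17B7 gained a call under 4 settings. NR1H3 gained a call in DESeq2 without the replicate block (0.55, q of 0.0473), which made 1 efflux gene called higher where the reported count was 0. ABCG1 changed sign without replicate 1 (-0.08), and its log2 fold change reached 1.15 without replicate 3. In DESeq2 the replicate block changed no member's call other than those of NR1H3 and HSD17B7 (0.43, q of 0.0336 without the block). The counts of members called by role ranged over leaving out each replicate from 16 to 17 for synthesis genes called higher and from 1 to 2 for SREBP control genes called higher. The sign-flip test over the 4 pairs, which respects the replicate block but cannot pass 0.05 with so few pairs, gave the smallest p it allows for each of the 3 within-library ratios (differences of 1.06, 0.59 and -2.50). The count over all genes was lowest without replicate 2 (5127 against 6541). Depth limited ABCG1 most, with 1 to 8 counts a library.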
